A study of Mus musculus with 2 samples.

Results

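Genes of the cilium were measured in RNA of wild-type mouse embryos taken whole at E14.5, with 1 condition and 2 duplicate Affymetrix whole-genome mouse arrays and no comparison of treatments. The RNA was total RNA isolated with RNAzol and labelled with biotin. The members were chosen by symbol, with earlier results of these data known. They are probe sets that pair with a single gene named as an intraflagellar transport, Bardet-Biedl, transition zone, axonemal dynein, radial spoke or central pair gene. They comprised 77 probe sets of 51 genes, out of 34958 probe sets of 18194 genes with 1 symbol. Of these, 29 genes (44 probe sets) were assigned to the primary cilium and 22 genes (33 probe sets) to the motile axoneme. Arl13b, Rpgrip1l and the dynein intermediate chain genes, which the same names would take, were not analysed here. NMRI and C57/BL6 mice appear in the study's methods without either being tied to the arrays, and nothing in the labels says whether the duplicates came from separate embryos, so the spread between them may be technical.

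A cilium is a membrane-covered rod of microtubules that grows from a centriole. Most cell types of the embryo can form a single primary cilium, which does not beat and serves signalling, including Hedgehog signalling. Cells of the airway, the ependyma, the choroid plexus and the oviduct carry many cilia, and the sperm tail is built on the same plan. Motile cilia add dynein arms, radial spokes and a central pair of microtubules to the axoneme. Intraflagellar transport (IFT), the BBSome and the transition zone are needed in both kinds of cilium, so the genes called primary-cilium genes here are shared, whereas the motile-axoneme genes belong to the beating apparatus.

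The deposited values were signals on a linear scale, scaled by the authors to a trimmed mean of 100 on each array. A signal was taken as above background when it passed a bound of 27.9 on array 1 and 33.8 on array 2, the 95th percentile of 81 olfactory, vomeronasal and bitter taste receptor probe sets on that array. A gene passed when at least 1 of its probe sets did so on array 1 and at least 1 on array 2, as 65.5% of all measured genes did. A gene is shown by its probe set with the highest mean signal. Probe sets differ in their response, so signals of different genes were not ranked as transcript levels. The RNA of whole embryos cannot tell a transcript that few cells make from one that many cells make at a low level. As a check of the labelled source, 6 of 6 genes that mark organs of the embryo passed: Afp (3594 and 3529) and Alb (2846 and 2405) of liver, Col2a1 (1609 and 1439) of cartilage, Acta1 (2543 and 2330) of skeletal muscle, Hbb-y (3947 and 4118) of red cells and Tubb3 (471 and 506) of neurons. With so few arrays the precision of all values is limited.

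The primary-cilium genes were above background far more often than the motile-axoneme genes. On both arrays 23 of 29 primary-cilium genes (79.3%) passed, compared with 3 of 22 motile-axoneme genes (13.6%). The difference was 65.7 percentage points, and 65.5% of all genes passed. All 14 IFT genes passed. Of the 15 other primary-cilium genes 9 (60%) did, a share near that of all genes. Among the members, the excess of the primary class over all genes thus lay in its IFT genes. Genes outside IFT that were listed apart from the members passed more often. These were 5 of 5 Bardet-Biedl genes, 12 of 15 transition zone genes and 13 of 13 genes of centrioles and ciliogenesis. The median signal of the primary-cilium genes was 73.5 on array 1 and 88.8 on array 2, and that of the motile-axoneme genes was 12.1 and 12.3. Relative to the bound, the median log2 signal averaged over both arrays was 1.41 for primary-cilium genes and 1.26 for all genes. Without the IFT genes the primary-cilium median was 0.59. That of motile-axoneme genes lay below the bound, where signals have no order. The 3 motile genes that passed were Dnah1, Dnal1 and Dnal4. With array 1 alone the tallies were 25 and 6, and with array 2 alone 25 and 4, so the motile count rose to 6 where array 2 was left out, through Rsph6a, Rsph9 and Rsph14, and to 4 where array 1 was left out, through Rsph3a. Genes are not replicates, and with 1 condition no p-value was computed for these shares.

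**Figure D1:**
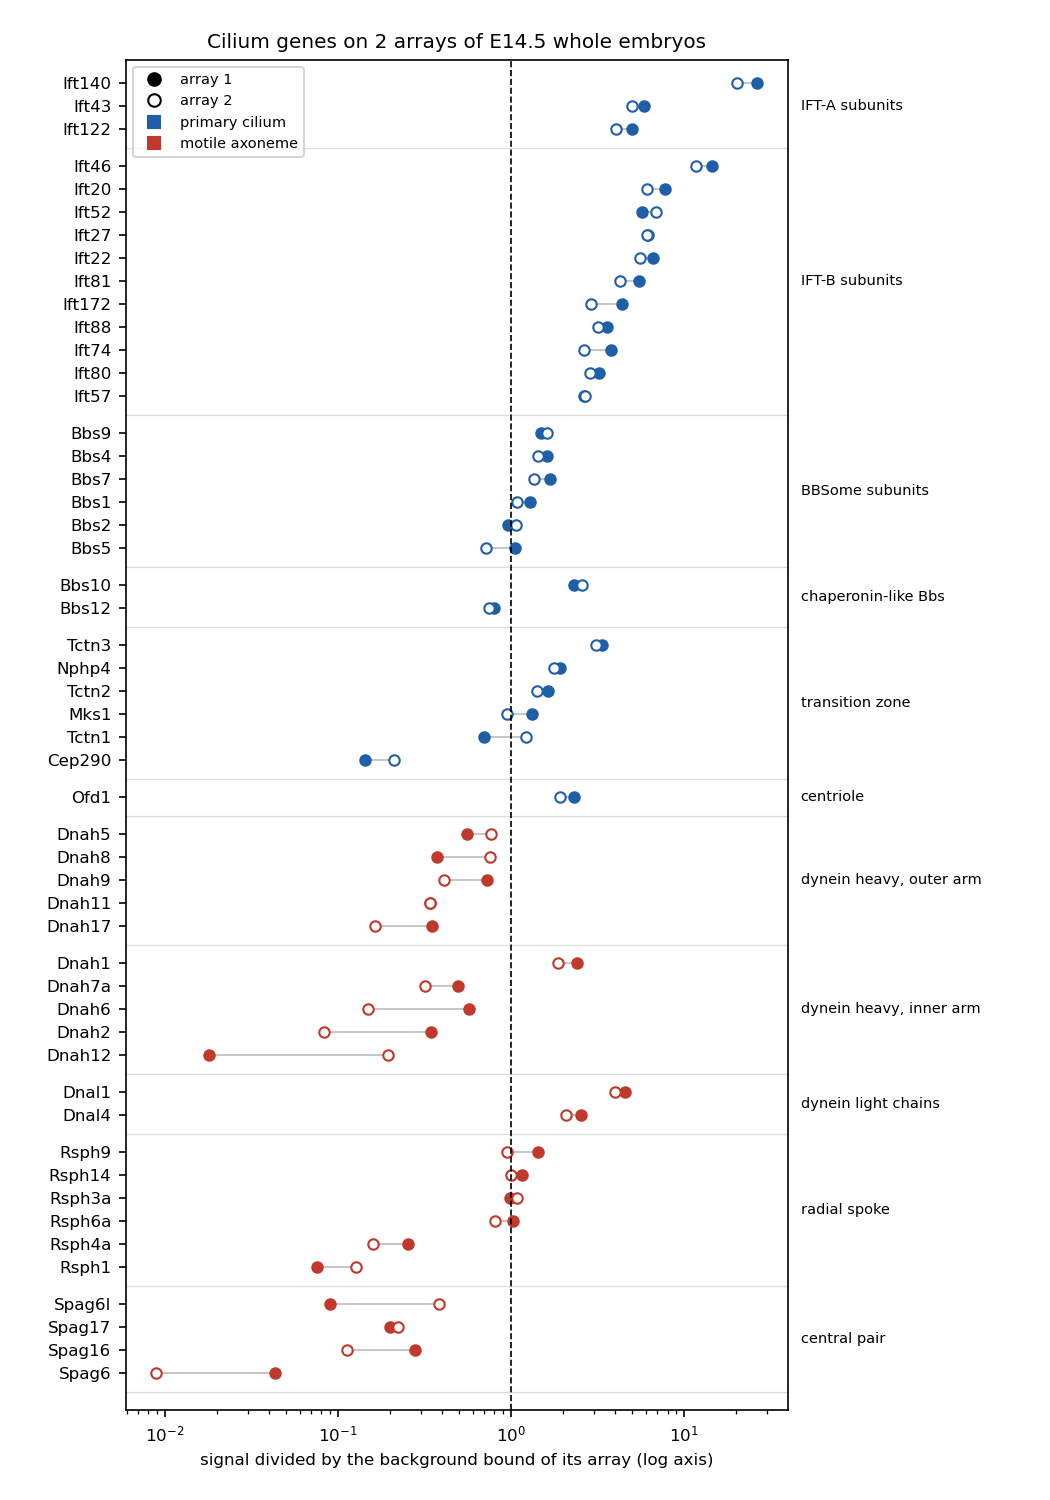
Cilium genes by role, each with its signal as a multiple of the bound (log axis), from array 1 as a filled and array 2 as an open point, with primary-cilium genes in blue and motile-axoneme genes in red. All 14 IFT genes lie to the right of the bound (dashed) on both arrays, and 19 of 22 motile-axoneme genes do not.

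The share of genes above background rises with the number of probe sets, and the difference between the classes was therefore also read at equal numbers. Among genes with 1 probe set, 13 of 19 primary-cilium genes (68.4%) and 1 of 14 motile-axoneme genes (7.14%) passed, next to 48.6% of all such genes. Among genes with 2 probe sets, 6 of 6 and 1 of 6 passed, next to 76.1% of all. Over single probe sets a gene with several of them counts several times. There, 29 of 44 (65.9%) passed for primary-cilium genes and 3 of 33 (9.09%) for motile-axoneme genes, beside 55.6% of all. The direction of the difference was thus the same in both strata and over probe sets. Only 4 and 2 genes had 3 or more probe sets, and of these 4 and 1 passed.

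IFT moves cargo along the axoneme, with the IFT-B complex on the way to the tip and the IFT-A complex on the way back. All 14 IFT genes of the rule were above background on both arrays, beside 65.5% of all genes, and each was at over 2 times the bound. In IFT-A, Ift140 had signals of 738 on array 1 and 685 on array 2. Ift43 was at 164 and 168. Ift122 was at 138 and 137 with its strongest probe set. All 4 IFT-A probe sets passed, and the duplicates were close for each gene. Ift140 overlaps Tmem204 in the RefSeq annotation of GRCm38.p6, and which of the 2 genes the probe set reads was not tested.

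In IFT-B, 11 of 11 genes passed, through 14 of 17 probe sets, beside 65.5% of all genes and 55.6% of all probe sets. Ift46 had 403 and 393, and Ift20, which also works at the Golgi in sorting proteins to the cilium, had 214 and 206. The Rab-like small GTPases of the complex, Ift27 and Ift22, had signals of 173 and 207 and of 183 and 187. Ift81 and Ift74, the pair that binds tubulin, had 153 and 144, and 105 and 88.8. All of these lay well above the bound on both arrays. Ift52, a core subunit, was at 159 on array 1 and 231 on array 2. Ift172 and Ift88, whose loss impairs cilia in mouse mutants, had 122.2 and 98.3, and 100.4 and 107. Ift80 had 89.4 and 96.1, and Ift57 73.5 and 90.4. Both were also measured by a second probe set below the bound, at 25.2 and 25.6 for Ift80 and at 21.2 and 21 for Ift57.

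Further IFT subunits carry other names and were put in a separate list, drawn up with earlier results of these data known. All 9 measured ones passed, from Hspb11 (154 and 159) and Ttc21b (141 and 135) to Wdr19 (36.2 and 40.1), although 5 of the 9 had a signal less than 2 times the bound on 1 array or both. This list gave 5 of 9 where most probe sets of a gene had to pass and 6 of 9 with the first by name. The motors passed in 7 of 8 cases, beside 65.5% of all genes. Kifap3, the non-motor subunit of kinesin-2, had 662 and 633, and Kif3a 154 and 133. Dync2h1, the heavy chain of the dynein that returns IFT trains to the cell body, had 94.4 and 106.5. The exception was Wdr60, an intermediate chain of the same dynein, with 7.1 and 2.9 from its only probe set. IFT subunits and motors together thus lacked a signal above background for 1 gene.

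The BBSome is a coat complex that carries membrane proteins into and out of the cilium. The 6 subunits named Bbs lay close to the bound. Bbs1, Bbs4, Bbs7 and Bbs9 passed on both arrays, with Bbs9 at 41.6 and 54.7, Bbs4 at 45.1 and 48.0, Bbs7 at 46.8 and 45.8 and Bbs1 at 35.7 and 36.4. All 4 were less than 2 times the bound on 1 array or both. The 2 other probe sets of Bbs4 (17.9 and 16.8, 17.9 and 23.9) and the other of Bbs7 were below the bound on both arrays, and the BBSome tally was 2 of 6, without Bbs4 and Bbs7, where most probe sets of a gene or the first by name had to pass. Bbs2 passed only on array 2, at 26.8 and 36.2. Bbs5 passed only on array 1, at 29.2 and 24.2. The median log2 signal over the bound was 0.41 for the 6 BBSome genes and 2.27 for the 11 IFT-B genes. Of the chaperonin-like genes, whose products help to assemble the BBSome, Bbs10 passed at 64.1 and 86.5 and Bbs12 did not, at 22.1 and 25.1. All 5 measured Bardet-Biedl genes listed under other names passed at over 2 times the bound, among them the BBSome subunits Ttc8 (112.5 and 95.8) and Bbip1 (306 and 326), the chaperonin-like Mkks (142 and 147), Trim32 (273 and 234) and Lztfl1 (138 and 118). Thus 5 of 8 genes named Bbs (62.5%) and 5 of 5 under other names passed, beside 65.5% of all genes. Whether the probe sets of the former respond less than those of the latter was not tested.

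The transition zone is the gate at the base of the cilium. Of its 6 genes, 3 (50%) passed on both arrays, beside 65.5% of all genes. These were Tctn3 (93.8 and 105), Tctn2 (45.6 and 47.9) and Nphp4 (53.5 and 59.5). Nphp4 had a second probe set below the bound, at 21.4 and 15.7, as had Tctn3, and only Tctn2 passed where most probe sets of a gene had to. Mks1, a B9-domain protein of the gate, lay at 36.8 and 32.0 and passed only on array 1. Tctn1 lay at 19.4 and 41.3 and passed only on array 2. Cep290, which links the microtubules of the gate to the membrane, was below the bound on both arrays at 4.0 and 7.1 with its only probe set. Of 15 transition zone genes listed under other names 12 passed, among them Tmem107 (423 and 422) and Ahi1 (185 and 213). The exceptions were Tmem67 (2.8 and 11.9), Tmem17 (25.6 and 22) and Nek8 (19.8 and 21.1). Ofd1, a protein of the distal centriole, passed at 64.2 and 64.4. So did all 13 genes of centrioles and ciliogenesis. Among them were Odf2 (340 and 323), an appendage protein of the mother centriole, and Tubg1 (308 and 284), the gamma-tubulin that nucleates microtubules. Only 9 of these 13 passed where most probe sets of a gene or the first by name had to.

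**Figure D2:**
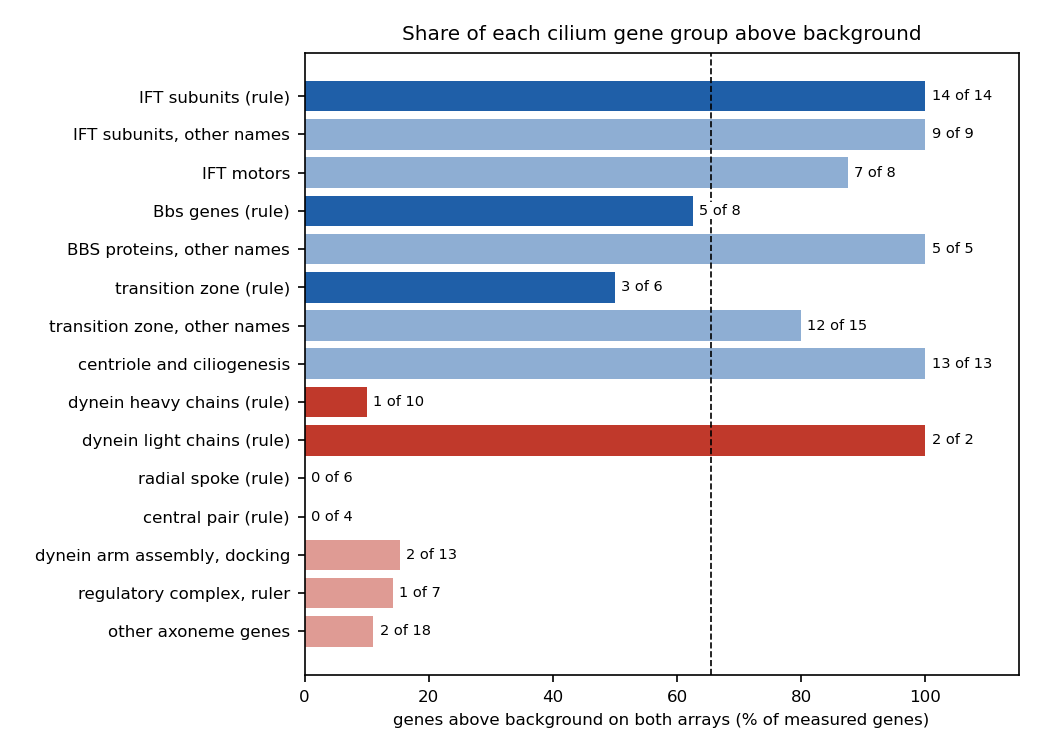
Percentage of measured genes per group that passed on each of the duplicates, with counts beside the bars, for groups taken by the rule (dark) and groups listed under other names (light) of the primary cilium (blue) and the motile axoneme (red). The dashed line marks the 65.5% of all genes. Of the red groups only the pair of dynein light chain genes lies to its right. Of the blue groups, the Bbs genes and the transition zone genes of the rule lie to its left.

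Axonemal dynein heavy chains are the motors that bend the axoneme, and 1 of 10 passed, beside 65.5% of all genes. None of the 5 outer arm genes did. Dnah5 (15.5 and 25.9), Dnah9 (20.1 and 13.8) and Dnah11 (9.5 and 11.5), which act in airway cilia, were below the bound on both arrays. Dnah8 (10.4 and 25.6) and Dnah17 (9.7 and 5.5), which act in the sperm tail, were below it as well. Of the 5 inner arm genes, Dnah1 was the exception, with 66.8 and 63.1 from 1 probe set and 31.6 and 32.9 from another, which passed only on array 1. Dnah7a (13.7 and 10.7), Dnah6 (16 and 5.0), Dnah2 (9.6 and 2.8) and Dnah12 (0.5 and 6.6) did not pass. No fold was taken between signals below the bound. One probe set shared by Dnah7b and Dnah7c, which was no member because it carries several symbols, had 13.7 and 18.7.

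Both axonemal dynein light chain genes passed, beside 65.5% of all genes. Dnal1, which encodes a light chain of the outer arm, had 128 and 134 from 1 of its 3 probe sets, while the others had 11.7 and 4.5, and 7.9 and 6.3. Dnal4 had 70.5 and 70.3 from its only probe set. Only Dnal4 passed where most probe sets of a gene or the first by name had to. The light chain genes were thus above background although none of the 5 outer arm heavy chain genes was.

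Radial spokes connect the outer microtubules with the central pair, and none of their 6 genes passed on both arrays, beside 65.5% of all genes. Of these, 4 lay at the bound. Rsph9, of the spoke head, was at 39.6 and 31.9, and Rsph14 at 32.2 and 33.6, so that each passed only on array 1, and Rsph14 was at 0.994 times the bound on array 2. Rsph6a passed only on array 1 at 28.4 and 27.2, and Rsph3a only on array 2 at 27.3 and 36.7. The spoke head genes Rsph4a (7.1 and 5.4) and Rsph1 (2.1 and 4.3) were well below it. A probe set shared by Rsph3a and its near-identical copy Rsph3b, again no member, had 339 and 330, about 12.2 and 9.76 times the bound, so transcripts of at least 1 of the 2 stalk genes were above background. Counting the shared probe sets as genes gave 4 of 24 for the motile class.

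The central pair genes Spag6, Spag6l, Spag16 and Spag17 were below the bound in all 8 probe sets, whereas 55.6% of all probe sets passed on both arrays. The strongest of each gene had 1.2 and 0.3 for Spag6, 2.5 and 13 for Spag6l, 7.8 and 3.8 for Spag16 and 5.6 and 7.5 for Spag17. Spag16 was at or under 7.8 with each of its 4 probe sets. Spag6 and Spag6l are copies of 1 gene, and signals from either could be shared between their probe sets.

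The remaining genes of the motile axoneme, listed apart from the rule, gave a share of 13.2% (5 of 38). Of the listed primary-cilium genes 46 of 50 (92.0%) passed, beside 65.5% of all genes. The lists were drawn up with earlier results of these data known, so these shares are no independent repeat of the class difference. These shares are not at equal numbers of probe sets, with a median of 2 per listed primary-cilium gene and 1 per listed motile gene. Over single probe sets, 71 of 106 (66.98%) passed for the primary-cilium lists and 6 of 58 (10.34%) for the motile lists, beside 55.6% of all. Of 13 dynein assembly and docking genes, Dnaaf2 (123 and 110) and Dnaaf5 (102 and 104) passed. Dynein arms are preassembled in the cytoplasm, where both act. Other assembly genes of the list did not pass, among them Dnaaf1 (22.2 and 21.6), Dnaaf4 (12.4 and 14.3) and Dnaaf6 (0.3 and 7.0). The docking genes Ccdc114, Ccdc151, Armc4 and Ttc25 had signals from 1.0 to 17.3. Of 7 genes of the nexin-dynein regulatory complex, the axonemal ruler and the inner arms, only Gas8 passed, at 78.6 and 58.1. The ruler genes Ccdc39 (8.9 and 14.8) and Ccdc40 (6.4 and 3.4) did not. Of 18 other genes Nme5 (40.8 and 50.4) and Stk36 (42.6 and 54.2) passed, and Tekt2 passed only on array 1, at 29.1 and 7.4. Hydin, a protein of the central pair, was at 5.4 and 6.1.

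Regulators and host tissues of motile cilia were read beside these values and beside the 65.5% of all genes that passed. Mcidas and Gmnc, also listed as regulators of cells with many cilia, were not analysed here. Foxj1, the transcription factor that drives the motile programme, was below the bound at 25.9 and 25.2. Rfx3 (62.4 and 98.2), which acts on genes of both kinds of cilium, and Myb (102.7 and 98.9), which is also a factor of blood progenitors, passed, whereas Rfx2 (18.5 and 31.8) and Ccno (17.6 and 21.8) did not. Rfx3 passed through 1 of 2 probe sets and Myb through 1 of 3, so that 0 of the 5 measured regulators passed where most probe sets had to. With the first probe set by name 1 passed, as without probe sets with names ending in _s_at, _x_at or _a_at. Of 5 choroid plexus genes, Clic6 (99.8 and 83.5), Folr1 (44.1 and 56.1) and Ttr (3332 and 2985), which the liver makes too, passed, and Kcnj13 (17.4 and 18.6) and Kl (8.2 and 4.8) did not. Their share of 60% is near that of all genes. The airway genes Scgb1a1 (1.4 and 2.7) and Nkx2-1 (13.7 and 24.3) were below the bound. None of 6 late spermatid genes passed. The protamine genes Prm1 (27.6 and 32.8) and Prm2 (19.6 and 29.1) and the sperm tail gene Akap4 (27.1 and 3.1) were below the bound, and Tnp1 (7.0 and 7.3), Tnp2 (0.9 and 1.2) and Odf1 (2.3 and 3.2) far below it. Which of the organs of the embryo already bore motile cilia was not measured, and the part of these tissues in the signals was not tested.

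Probe sets of the same gene often disagreed. Of 10 primary-cilium genes with several probe sets, all probe sets passed for 3 (Ift122, Ift27 and Bbs10), some for 7 and none for 0. Of 8 motile-axoneme genes, all passed for 0, some for 2 (Dnah1 and Dnal1) and none for 6. Over all genes with several probe sets 53.3% were mixed. Tctn3 is an example, with probe sets at 93.8 and 105, 13.2 and 10.4, and 0.6 and 1.0. Ift81 had 1 of 3 probe sets below the bound at 12 and 19.6, beside 153 and 144, and 68.8 and 62.9. Bbs7 was at 46.8 and 45.8 with 1 probe set and at 1.0 and 4.2 with the other. A single low probe set, such as that of Cep290, therefore gives no measure of the transcript's absence. In the annotation, 14 of the 51 genes overlap another protein-coding gene, and the strand and exon that each probe set reads were not checked.

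The duplicates were close for every probe set of these genes that passed on both arrays. The centred log2 difference (array 2 minus array 1) of 32 such probe sets had a median of 0.05 and an SD of 0.21, and ran from -0.31 to 0.54, compared with an SD of 0.25 over all 19434 probe sets that passed. None of the 32 differed by more than 1.5-fold, beside 3.24% of all. With only 32 probe sets this lies near the share of all and does not set these genes apart. The largest differences upward on array 2 were those of Ift52 (1.46-fold), Bbs10 (1.35-fold) and Bbs9 (1.32-fold). Downward they were those of Ift172 (1.24-fold), Ift122 (1.23-fold, with its weaker probe set at 60.3 and 48.9) and Ift74 (1.18-fold). The median was 0.07 for the 29 primary-cilium and -0.0021 for the 3 motile-axoneme probe sets. Near the bound the arrays were less alike in outcome. A pass on 1 array only was seen for 4 of 29 primary-cilium and 4 of 22 motile-axoneme genes, beside 4.73% of all genes, and 7 of the 23 primary-cilium genes that passed on both arrays (30.4%) were under 2 times the bound on at least 1 of them, beside 21.0% of all genes that passed.

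**Figure D3:**
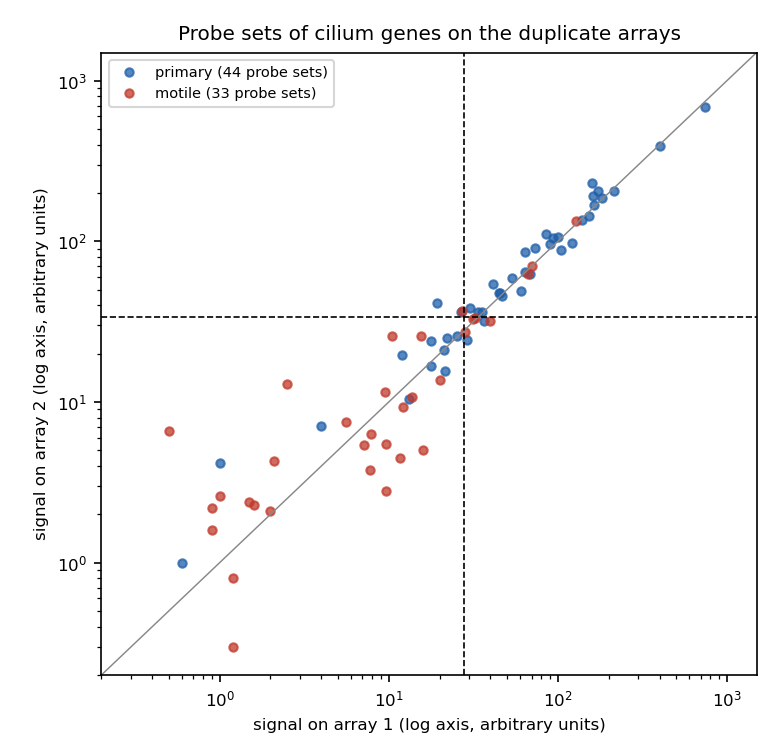
The 77 probe sets of cilium genes, with the array 1 signal on the horizontal and the array 2 signal on the vertical log axis (arbitrary units); dashed lines mark the bounds and a grey line marks equal signals. The 32 probe sets in the upper right field are 29 of primary-cilium and 3 of motile-axoneme genes.

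RFX factors, which control ciliary genes, bind a palindromic sequence called the X-box, and the promoters of the members were read for it. A promoter window here is 250 bases before and 50 bases after a RefSeq start site in GRCm38.p6; 46 of the 51 genes had 1 or more, with 49 windows in all, and Ift122, Ift80, Ift81, Rsph1 and Rsph4a had none in the table used. The pattern searched was GTNNCCNNGGNNAC, where N is any base, which reads the same on both strands. It was present in the windows of 9 of 26 primary-cilium genes (34.6%) and 2 of 20 motile-axoneme genes (10%), compared with 2.68% of all genes on the array that have a window. Among all genes on the array it was about as frequent in those above background (2.56%) as in those not (2.92%). Within the primary-cilium genes it was present in 7 of 20 that passed on both arrays and in 2 of 6 that did not.

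The matches are shown with the pattern in capitals and up to 8 bases on either side, 5′ to 3′ on the strand of the gene, to let the 11 genes that hold the pattern be compared letter by letter.
Bbs1 (chr19:4906605-4906634, minus strand): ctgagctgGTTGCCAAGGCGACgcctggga
Bbs4 (chr9:59353464-59353493, minus strand): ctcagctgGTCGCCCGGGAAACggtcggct
Bbs7 (chr3:36613489-36613518, minus strand): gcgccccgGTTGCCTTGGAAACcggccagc
Ift22, first (chr5:136908079-136908108, plus strand): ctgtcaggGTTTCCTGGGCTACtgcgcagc
Ift22, second (chr5:136908109-136908138, plus strand): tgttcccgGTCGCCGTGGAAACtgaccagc
Ift57 (chr16:49699199-49699228, plus strand): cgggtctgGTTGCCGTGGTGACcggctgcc
Mks1 (chr11:87853183-87853212, plus strand): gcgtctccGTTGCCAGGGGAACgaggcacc
Nphp4 (chr4:152477903-152477932, plus strand): cggtgcccGTCTCCTAGGTAACgcgccagc
Tctn1 (chr5:122264411-122264432, minus strand): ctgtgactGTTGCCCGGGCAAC
Tctn2 (chr5:124598679-124598708, plus strand): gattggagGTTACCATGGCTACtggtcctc
Rsph9 (chr17:46144185-46144214, minus strand): ggctcaggGTCTCCATGGAGACagcttcta
Spag6l (chr16:16829314-16829337, minus strand): tgctgtcgGTTGCCCTGGAGACgc

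Of the genes shown, Bbs1, Bbs4, Bbs7, Ift22, Ift57, Nphp4 and Tctn2 were above background on both arrays. Mks1, Tctn1 and Rsph9 passed on 1 array and Spag6l on neither. The half-site GTTGCC on either strand, which overlaps the full pattern in several windows, was held by 13 of 26 primary-cilium genes (50%) and 4 of 20 motile-axoneme genes (20%), next to 14.7% of the genes on the array. The 4 motile genes were Dnah7a, Spag16, Spag6 and Spag6l, and all were below background. The forkhead core TGTTTAC on either strand, a letter string that Foxj1 and other forkhead factors can bind, was found in the window of Dnah17 only, next to 3.38% of the genes on the array. A match is a string of letters and not a measured binding site, and its absence from a window says nothing about the factor.

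The promoters of the 2 classes also differed in their content of CG pairs. The 28 primary-cilium windows held a median of 21 CG pairs (range 7 to 35) with a median of 60.2% G and C. The 21 motile-axoneme windows held a median of 12 (range 1 to 26) with 53.7% G and C. Over the array, windows of genes that passed on both arrays held a median of 20 CG pairs and those of other genes 6. The motile-axoneme windows thus lay between these medians. The 3 motile genes that passed held 14 (Dnal1), 15 (Dnah1) and 18 (Dnal4) CG pairs, and the other 18 motile windows had a median of 12. The largest number in the motile class, 26, was that of Spag6, whose signals were 1.2 and 0.3. Cep290, below background on both arrays, held 25. These are descriptions of the windows, with no test.

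**Figure D4:**
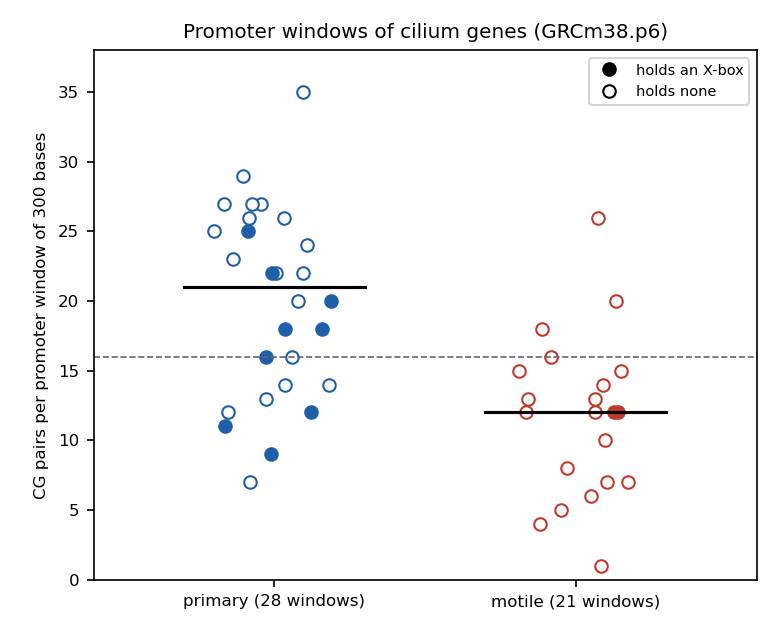
Number of CG pairs in each promoter window of 300 bases of the primary-cilium (blue) and motile-axoneme (red) genes, with class medians of 21 and 12 (bars), the median of 16 for genes on the array (dashed) and windows that hold an X-box pattern filled. Filled points number 9 among 28 primary-cilium windows and 2 among 21 motile-axoneme windows.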

How the data were processed

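The deposited signal intensity values were made by the authors with GCOS 1.3, per the labels, from RNA of E14.5 whole embryos on 2 arrays. They were used on their linear scale as given, with a trimmed mean of 100 on each array and medians of 32.0 and 35.3. The 932 probe sets with several symbols and the 9211 that the annotation does not list entered no gene's value; 2 of the former are given in the text as shared probe sets. RefSeq (GRCm38.p6) held the gene identifier of 34754 of 34958 probe sets, and current symbols were taken from it, which changed no member's name. The members, roles, lists and motifs were chosen with earlier results of these data known. Every member is named; of other lists, all genes of lists of up to 6, and otherwise the exceptions and the 2 with the highest mean signal. Wdr19, Dync2h1, Tekt2, Hydin, Dnaaf1, Dnaaf4, Dnaaf6 and the docking and ruler genes were named after their values were seen. The full X-box was added after the half-site had been chosen. The bound, the call and the medians were as described above. For differences between arrays, log2 signals of probe sets that passed on both were subtracted and centred on the median. Zero signals were set to 0.1 before logs. Other settings for the bound were a 90th or 99th percentile, a bound from genes taken as silent and the array median. Further settings were other rules for several probe sets and leaving out probe sets with names ending in _s_at, _x_at or _a_at. Symbols without the update, each array alone, quantile normalization and a pseudocount of 16 without a filter were also tried. Adding shared probe sets was chosen after seeing the data. The steps were tested on simulated arrays in which expressed and silent genes lay far apart, so calls near the bound were not tested. Protein sequences were not used here. Promoter windows came from RefSeq. Python 3.11.15, pandas 2.3.3, numpy 2.4.6 and matplotlib 3.10.9 were used.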

Additional observations from a re-analysis of the deposited data

How the results depend on the processing

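The share above background was higher for primary-cilium than for motile-axoneme genes under all 12 alternatives, by 54.1 to 68.0 percentage points. The motile tally was 6 with the 90th percentile bound and with the bound from genes taken as silent, through Rsph3a, Rsph9 and Rsph14, and 1 (Dnal4) where a majority of a gene's probe sets or the first by name had to pass. The difference was then 58.9, 55.5 and 54.1 points with the first 3 of these, and 58.9 to 68.0 with either array alone, where the motile tally was 4 to 6. The primary tally ranged from 17 to 25, and was 25 with either array alone. The median log2 signal over the bound of primary-cilium genes was 1.68 and 1.12 with the 90th and 99th percentile bounds, 1.28 with the array median and 1.52 with the silent genes. It was 0.66 as a median over probe sets and 1.39 to 1.40 with either array alone. Without probe sets with names ending in _s_at, _x_at or _a_at it was 0.86. That of motile-axoneme genes, below the bound throughout, was -1.17 and -1.74 with the 90th and 99th percentile bounds, -1.68 without such probe sets, -2.08 as a median over probe sets and -1.47 to -1.22 with either array alone. The median difference between arrays of primary-cilium probe sets was 0.018 with quantile normalization, and 4 of 77 probe sets differed by more than 1.5-fold without a filter. Of 121 role tallies and 143 list tallies, 110 and 132 were within 1.5 times the values given. The 110 include the outer arm and central pair tallies, which were 0 under every setting. Of 69 alternative values of the main results, 45 stayed within their limit and 24 did not. That limit was 1.5 times for counts and a spread derived from the 2 arrays for shares and medians. No paired analysis was possible because there is 1 group. Depth has no counterpart on arrays; the bound decides all calls of signals near it.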
